A study of Mus musculus with 16 samples.

Results

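Genomic sites were studied that Oct4 occupied on day 1 and on day 5 of reprogramming and at which it was no longer called at day 7. The sites were chosen by the presence of ChIP-seq peak summits: the Oct4 summits of days 1, 5 and 7 were merged wherever neighbours lay within 100 bp, and a merged site was taken when it held summits of days 1 and 5 and none of day 7. On chromosomes 1 to 19, X and Y this gave 1202 of 13115 merged Oct4 sites (9.17%). They made up 59.5% of the 2020 sites with summits at days 1 and 5, the other 818 being sites that also had a summit at day 7. Below, the 1202 sites are called lost sites, the 818 are called kept sites, and the 5891 sites with a summit at day 1 alone are called day 1 only sites. A lost site is one where no day 7 summit was called, which is not the same as no binding.

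ChIP-seq, the sequencing of DNA pulled down with an antibody to a bound protein, was carried out on OG2 MEFs, mouse embryonic fibroblasts with a GFP reporter driven by the Oct4 promoter. All cells received retroviral Sox2 and Klf4 (SK) with 1 POU factor and were then kept in the chemically defined medium iCD1, and days were counted from the switch to that medium. The groups used here were Oct4 ChIP in Oct4-SK cells (day 1, day 5 and day 7), Oct4defSox2 ChIP in Oct4defSox2-SK cells (days 1 and 5), Sox2 ChIP in cells given Oct4-SK, Oct6-SK or Oct4defSox2-SK (days 1 and 5 each), Oct4 S151M ChIP in Oct4 S151M-SK cells (day 1) and Oct6 M151S ChIP in Oct6 M151S-SK cells (day 1 by the title of the sample, day 2 by its other label). Each of these 13 groups had 1 library, so replicates could not be tested and p-values are left out. Transduced cultures are mixtures of cells at different stages, and a summit list gives no share of cells.

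Oct4 is a POU transcription factor whose DNA-binding domain has a POU-specific part and a POU homeodomain joined by a flexible linker. It binds the octamer alone, the composite SoxOct element side by side with Sox2, and the palindromic MORE element, or its MORE+1 variant with an extra base in the middle, as a homodimer. The SoxOct element is the hallmark of enhancers in pluripotent cells, whereas AP-1, RUNX and TEAD motifs mark enhancers that are active in fibroblasts. Oct4defSox2 was engineered to impair the partnership with Sox2. Exchange of 1 residue that bears on homodimer formation between both factors gave Oct4 S151M, a stronger homodimer former than Oct4, and Oct6 M151S, a weaker one than Oct6.

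The sequences of the highest-scoring lost sites with each POU motif are shown first, because the results turn on these motifs. All were read from the mouse genome build GRCm38 (mm10), 5′ to 3′ on the strand named, and capitals mark the motif match with flanking bases in lower case. MORE or MORE+1 matches were allowed 1 mismatch. The match of Sort1 had 0 mismatches and those of Bcl2l11 and 1810010H24Rik had 1 each.
Sort1, chr3:108304885-108304946, plus strand: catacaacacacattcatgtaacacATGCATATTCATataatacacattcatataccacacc
Bcl2l11, chr2:128055303-128055364, plus strand: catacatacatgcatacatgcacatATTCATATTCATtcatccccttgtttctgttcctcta
1810010H24Rik, chr11:107019852-107019914, plus strand: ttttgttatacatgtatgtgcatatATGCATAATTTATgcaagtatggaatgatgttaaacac

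SoxOct matches were allowed 2 mismatches, and each of the 3 below had 2. The run for St8sia4 is short because it lies in a UTR.
St8sia4, chr1:95621382-95621410, minus strand: tgtgcatCTTTGTTATGCGCATattctga
Nacc1, chr8:84678447-84678511, minus strand: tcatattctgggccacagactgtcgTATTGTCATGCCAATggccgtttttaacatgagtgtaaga
4933405O20Rik, chr7:50596101-50596165, minus strand: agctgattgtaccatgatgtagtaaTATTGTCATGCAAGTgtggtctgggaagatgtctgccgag

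The octamer was searched as ATGCAAAT with 0 mismatches. The 2 highest-scoring sites with an octamer and neither composite element were the following.
Pde4d, chr13:109593054-109593111, plus strand: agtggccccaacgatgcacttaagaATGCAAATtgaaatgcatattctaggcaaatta
Slc22a3, chr17:12502710-12502767, plus strand: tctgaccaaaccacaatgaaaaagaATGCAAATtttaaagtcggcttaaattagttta

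For comparison, the whole window around the centre of the highest-scoring lost site with no match to any of the 13 motifs searched is given. It holds runs of short repeated units, with no capitals since nothing matched.
5031439G07Rik, chr15:84997523-84997723, plus strand: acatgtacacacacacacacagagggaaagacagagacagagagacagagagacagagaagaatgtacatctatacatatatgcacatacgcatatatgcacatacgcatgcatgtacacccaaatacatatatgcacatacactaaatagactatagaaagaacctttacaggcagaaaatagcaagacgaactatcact

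The score of a summit is the −log10 of its MACS2 p-value. Scores of different libraries are not on a common scale, so those of days 1 and 5 are given side by side. The percentile of a summit is its place within its own list, and because the lists differ in length, a difference of percentile between days is a description and not read as a change in binding. Since the sites were chosen from the Oct4 summits, their Oct4 scores are a description and were not tested. Lost sites had a median score of 16.9 at day 1 (quartiles 10.7 and 27.2) and of 11.1 at day 5 (7.61 and 16.2), with lowest scores of 4.02 and 4.12 and highest scores of 296 and 189. Kept sites stood at medians of 20.9 at day 1, 19.4 at day 5 and 15.4 at day 7, and day 1 only sites at a median of 10.0. A lost site was typically at percentile 73.5 of all day 1 summits and at percentile 63.0 of all day 5 summits. At 606 lost sites (50.4%) the score was 10 or more on both days, and 65 were at percentile 90 or above in both lists. Across the 1202 sites, which share the 2 libraries, the scores of the 2 days were weakly related (Spearman's rho 0.301).

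**Figure D1:**
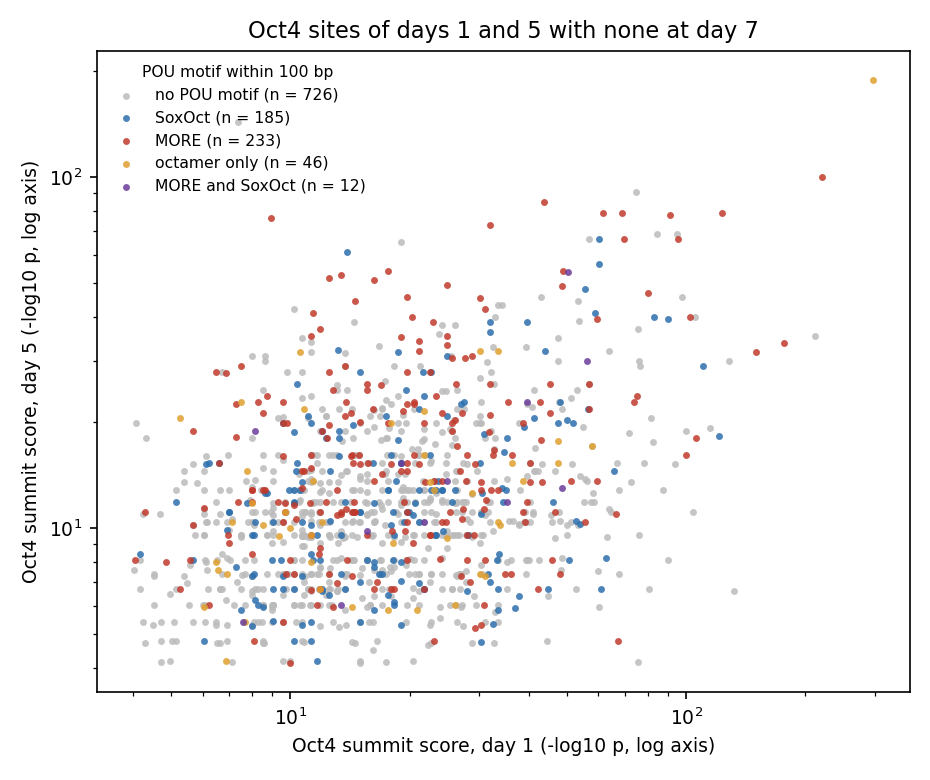
Oct4 summit scores of the 1202 lost sites at day 1 (x axis) and day 5 (y axis), both −log10 p on log axes, coloured by POU motif. The bulk lies between 4 and 40 on both axes, the octamer site of Pde4d stands at the upper right (296 and 189), and MORE sites (red) are frequent among those with high day 5 scores.

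The share of sites lost was lower in bands of higher score, which is a description, since the rule used these same Oct4 summits. Of the sites with summits at days 1 and 5, those with a day 5 score of 4 to 10 were lost in 79.7% of cases (Wilson 95% interval 76.3 to 82.7), those of 10 to 20 in 62.4% (59.0 to 65.6), those of 20 to 40 in 41.7% (37.0 to 46.6) and those of 40 or more in 21.6% (16.4 to 28.0). With the day 1 score the shares ran from 71.3% (66.4 to 75.7) in the lowest band to 46.2% (40.8 to 51.6) in the highest. Strong sites were thus also lost: 42 lost sites scored 40 or more at day 5. Numbers of summits fell in the same order, from 8216 at day 1 to 4854 at day 5 and 3638 at day 7, and reads of the day 7 Oct4 library were shorter than those of the other libraries, whence read length and day cannot be told apart. Main differences from kept sites are given within bands of score as well.

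The rule set a sharp edge at 100 bp, and few sites lay near it. The nearest day 7 summit was up to 150 bp away at 8 lost sites, farther but up to 250 bp at 8, up to 1000 bp at 20 and up to 10000 bp at 49, and it was beyond 10000 bp at 1117 (92.9%). Just outside the limit were lost sites near Sestd1 and Borcs5 (103 bp each) and near Ofcc1 (108 bp). Just inside it were kept sites near Hat1 (99 bp), Plekhs1 (97 bp) and Atxn7l1 (96 bp). Day 1 and day 5 summits of a lost site were a median of 27.5 bp apart, and 922 sites (76.7%) had them within 50 bp. No lost site spanned more than 140 bp, and 1199 held exactly 1 summit of each day.

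Of the 10 libraries that the rule did not use, the Oct4 S151M and Oct4defSox2 day 1 libraries covered most lost sites. Occupied means that the library had a summit no more than 100 bp from an Oct4 summit of the site. Oct4 S151M occupied 1110 lost sites, 92.3% (90.7 to 93.7), against a background of 63.3% of all merged Oct4 sites. Its list was by far the longest, with 101170 summits. Oct4defSox2 at day 1 (31070 summits) occupied 998 lost sites, 83.0%, against 46.8% of all merged sites. At day 5, when its list had 1038 summits, Oct4defSox2 occupied 176 lost sites, 14.6%, against 4.47% of all. Of the 998 lost sites that Oct4defSox2 held at day 1, 175 (17.5%) were occupied at day 5, and only 1 lost site gained it anew.

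Sox2 occupied few lost sites. Its lists at days 1 and 5 held 15222 and 5832 summits in Oct4-SK cells and 3242 and 2673 in Oct6-SK cells. In Oct4defSox2-SK cells they held 5794 and 21563. The shares below were not adjusted for list length and are not compared between cocktails or days. In Oct4-SK cells Sox2 was found at 272 lost sites at day 1 (22.6%, against 14.7% of all merged sites) and at 128 at day 5 (10.6%, against 6.92%). In Oct6-SK cells it was found at 75 at day 1 (6.24%, against 3.56%) and 59 at day 5 (4.91%, against 3.46%). In Oct4defSox2-SK cells the numbers were 78 at day 1 (6.49%, against 4.05%) and 108 at day 5 (8.99%, against 6.58%). No summit of any of the 6 Sox2 libraries was present at 812 lost sites, 67.6% (64.9 to 70.1). At least one of them was at 32.4% of lost, 39.6% of kept and 26.4% of day 1 only sites. Sox2 in Oct4-SK cells was found on both days at 70 lost sites (5.82%, against 12.7% of kept and 2.63% of day 1 only sites), at day 1 alone at 202 and at day 5 alone at 58. Oct6 M151S occupied 121 lost sites (10.1%, against 6.17% of all merged sites), and 7.57% when its summits under a score of 4, which the other lists do not hold, were left out.

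The number of other libraries at a lost site ranged from 0 to 9, with a median of 2. The most frequent pattern was Oct4defSox2 at day 1 together with Oct4 S151M and nothing else, at 461 lost sites (38.4%, 35.6 to 41.1). The same pattern was at 20.8% of all merged sites, 33.3% of kept sites and 22.6% of day 1 only sites. There were 26 lost sites with none of the 10 libraries and 112 (9.32%, against 13.9% of kept and 4.09% of day 1 only sites) with 5 or more. No library was at 2.16% of lost sites, 0.733% of kept sites and 15.0% of day 1 only sites.

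**Figure D2:**
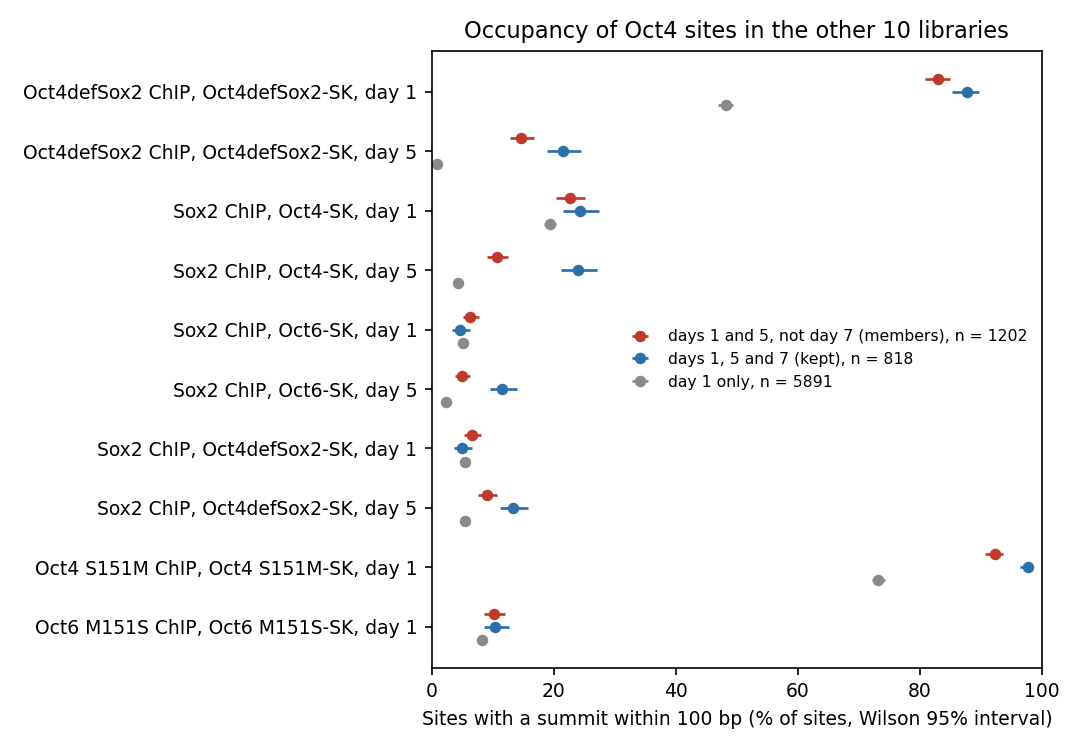
Share of lost sites (red, members in the legend), kept sites (blue) and day 1 only sites (grey) with a summit of each of the other 10 libraries within 100 bp; bars are Wilson 95% intervals, which cover counting error among sites. Lost sites lie within 5.45 points of kept sites in each day 1 library and fall between the other classes in the day 5 libraries, for example at 10.6% against 24.0% and 4.24% for Sox2 in Oct4-SK cells at day 5.

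To ask where lost sites differ from sites that stay occupied, their shares were compared with those of kept sites, with Newcombe 95% intervals for the difference that cover counting error only. At a summit distance of 100 bp, the difference for Sox2 passed counting error at day 5 and not at day 1, and the days were not tested against each other. In Oct4-SK cells at day 5, Sox2 was at 10.6% of lost and 24.0% of kept sites, a difference of -13.3 points (-16.8 to -9.95), whereas at day 1 the shares were 22.6% and 24.3%, a difference of -1.70 points (-5.51 to 2.03). The same held in Oct6-SK cells, with 4.91% against 11.5% at day 5 (-6.58 points, -9.19 to -4.15) and 6.24% against 4.52% at day 1 (1.72 points, -0.343 to 3.66). This day 1 difference passed counting error, with the higher share at lost sites, at 250 bp (2.65 points, 0.306 to 4.88) and with 1 summit per peak (2.15 points, 0.101 to 4.09). In Oct4defSox2-SK cells the day 5 difference was -4.34 points (-7.25 to -1.56), and that of day 1 was 1.6 points (-0.516 to 3.6). The day 5 difference in Oct4-SK cells was present in each band of the day 5 Oct4 score, from -10.9 points (-19.7 to -3.24) at scores of 4 to 10 to -17.6 points (-23.3 to -12.1) at 10 to 20. By the day 1 score its interval held 0 at 4 to 10 (-7.17 points, -16.4 to 0.639) and not in the bands above.

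Retention of Sox2 was compared in the same way. Of the lost sites with Sox2 at day 1 in Oct4-SK cells, 70 of 272 (25.7%, 20.9 to 31.2) had it at day 5, and of such kept sites 104 of 199 (52.3%, 45.3 to 59.1), a difference of -26.5 points (-34.9 to -17.7). In Oct6-SK cells, which received no exogenous Oct4, the shares were 20 of 75 (26.7%) and 21 of 37 (56.8%), a difference of -30.1 points (-47.1 to -10.8). In Oct4defSox2-SK cells they were 43 of 78 (55.1%) and 23 of 40 (57.5%), a difference of -2.37 points (-20.2 to 16.2), which is within counting error. The interval of the last difference is wide, and the cocktails were not tested against each other. From day 1 to day 5 the Sox2 list became shorter in Oct4-SK and Oct6-SK cells and longer in Oct4defSox2-SK cells (5794 to 21563 summits). Retention was not adjusted for this, so its level cannot be compared between cocktails.

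Differences in the POU factor libraries depended on the score. Oct4defSox2 at day 1 was at 83.0% of lost and 87.7% of kept sites (-4.62 points, -7.67 to -1.47), and within each band of the day 1 or day 5 Oct4 score the interval of this difference held 0. At day 5 it was at 14.6% and 21.5% (-6.87 points, -10.4 to -3.46), but within bands of the day 5 Oct4 score the value was above 0 in each. It was 0.897 points (-4.13 to 3.84) at 4 to 10, 2.55 points (-2.48 to 7.21) at 10 to 20, 13.5 points (4.88 to 22.1; 32.5% of lost and 19.1% of kept sites) at 20 to 40 and 0.971 points (-15.8 to 16.6) at 40 or more. Within bands of the day 1 score the value was below 0 in each, from -0.887 points (-9.45 to 5.99) at 4 to 10 to -16.6 points (-26.1 to -6.49; 23.2% and 39.8%) at 40 or more, and the last alone passed counting error. Oct4 S151M was at 92.3% and 97.8% (-5.45 points, -7.28 to -3.6). By day 5 score the difference passed counting error at 4 to 10 alone (-9.8 points, -13.4 to -4.6), and by day 1 score at 4 to 10 (-14.4 points, -19.5 to -8.56) and 10 to 20 (-6.84 points, -9.97 to -3.6). When its list was held to the length of the Oct4 day 1 list, the shares were 36.0% and 35.1%. Oct6 M151S was at 10.1% and 10.4% (-0.325 points, -3.10 to 2.32).

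Over all scores, the lost sites had higher shares than day 1 only sites, past counting error, in most libraries. Lost sites were chosen for having an Oct4 summit at day 5 and day 1 only sites for lacking it. The part of this choice in the differences was not tested. Oct4defSox2 at day 1 was at 83.0% of lost and 48.2% of day 1 only sites, a difference of 34.9 points (32.3 to 37.3). This held in each band of the day 1 Oct4 score, from 33.1 points (27.1 to 38.5) at scores of 4 to 10 to 18.8 points (9.31 to 29.1) at 40 or more. Oct4defSox2 at day 5 was at 14.6% and 0.798% (13.8 points, 11.9 to 16.0). Sox2 in Oct4-SK cells was at 10.6% and 4.24% at day 5 (6.41 points, 4.70 to 8.34) and at 22.6% and 19.4% at day 1 (3.28 points, 0.780 to 5.92). The day 1 difference turned to -0.989 points when Oct4 summits were limited to scores of 10 or more. By the day 1 Oct4 score its interval held 0 in each band but that of 20 to 40 (6.32 points, 0.4 to 12.4). The day 5 difference for Sox2 passed counting error in the bands below 40 and not at 40 or more (4.45 points, -1.73 to 9.82).

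The share of lost sites with a POU motif depended on the mismatches allowed. At those stated above and within 100 bp of the site centre, 726 lost sites (60.4%, 57.6 to 63.1) had no octamer, SoxOct, MORE or MORE+1 match, against 69.4% of all merged Oct4 sites and 96.7% of windows 2 kb to either side of the lost sites. With 1 fewer mismatch the share with none was 85.2%, and with 1 more it was 26.7%. MORE or MORE+1, called MORE from here on, was found at 245 lost sites (20.4%, 18.2 to 22.8), against 9.1% of all merged sites and 0.582% of flanking windows. SoxOct was at 197 (16.4%, 14.4 to 18.6), against 17.6% of all merged sites, a share near the background of Oct4 sites, and 1.21% of flanking windows. The order of these elements also depended on this choice: with 1 more mismatch, SoxOct was at 48.7% and MORE at 41.4% of lost sites. The octamer was at 93 (7.74%), against 9.26% of all merged sites. Most SoxOct matches were distant from the consensus, with 2 of the 197 at 0 mismatches, whereas 58 of the 161 sites with the MORE element proper and 13 of the 89 with MORE+1 had 0. The median distance from the site centre was 16 bp for MORE proper, 15 bp for MORE+1 and 17 bp for SoxOct.

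Of the 13 motifs, SoxOct showed the largest difference between lost and kept sites. It was at 16.4% of lost and 36.9% of kept sites, a difference of -20.5 points (-24.4 to -16.6), which was -6.68 points when 1 fewer mismatch was allowed. MORE was at 20.4% and 16.7% (3.63 points, 0.153 to 7.01), a difference that did not exceed counting error under several other settings. Seen from the motif, 39.0% (34.7 to 43.5) of the 474 sites with SoxOct and no MORE were lost, 65.3% (60.2 to 70.0) of the 357 with MORE and no SoxOct, 57.5% (46.6 to 67.7) of the 80 with an octamer alone and 67.0% (64.1 to 69.7) of the 1084 with no POU motif. The SoxOct difference was present in each band of the day 5 score up to 40, for instance -25.8 points (-33.8 to -17.0) at 20 to 40, and above 40, where only 42 lost sites were left, it was -12.0 points (-22.7 to 2.94). Within bands of the day 5 score from 10 to 40 the MORE difference was larger than over all sites: it was 10.1 points (4.92 to 14.9) at day 5 scores of 10 to 20 and 18.2 points (9.69 to 26.7) at 20 to 40, where 34.3% of lost and 16.1% of kept sites had the element. By the day 1 score it was 7.68 points (2.43 to 12.6) at 10 to 20 and -1.35 points (-10.9 to 8.36) at 40 or more.

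**Figure D3:**
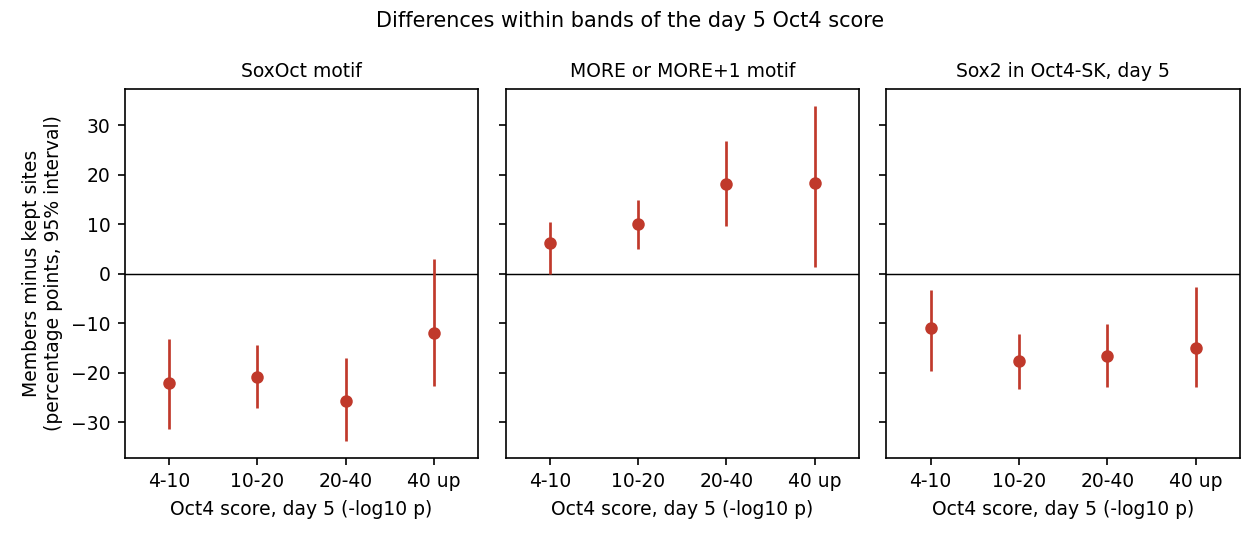
Difference between lost and kept sites (percentage points, Newcombe 95% interval) in the share with SoxOct (left), with MORE (middle) and with Sox2 in Oct4-SK cells at day 5 (right), within 4 bands of the day 5 Oct4 score (x axis, −log10 p). The points of SoxOct and Sox2 lie below 0 and those of MORE above 0 in each band, and the intervals of SoxOct at 40 and up and of MORE at 4 to 10 hold 0.

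Over all scores, both composite elements were more frequent at lost sites than at day 1 only sites. MORE was at 20.4% and 7.77% (12.6 points, 10.3 to 15.1) and SoxOct at 16.4% and 11.2% (5.17 points, 3.02 to 7.50). MORE differed in each band of the day 1 score below 40, by 9.25 to 10.8 points, and at 40 or more the difference was 9.10 points (-1.95 to 19). The SoxOct difference was 4.29 points (0.41 to 9.19) at 4 to 10 and 4.6 points (1.1 to 8.55) at 10 to 20, and its interval held 0 at 20 to 40 (4.42 points, -0.198 to 9.38) and at 40 or more (-1.26 points, -11.8 to 8.23). MORE+1, with or without MORE proper, was at 7.40% of lost and 1.71% of day 1 only sites (5.69 points, 4.29 to 7.34).

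Motifs of other factors were searched as fixed strings on both strands. RUNX (TGTGGTT), the site of RUNX factors, was at 152 lost sites (12.6%, against 7.4% of all merged sites and 4.74% of flanking windows). Its share was higher than at kept sites (8.19%, 4.45 points, 1.73 to 7.07) and than at day 1 only sites (7.01%, 5.63 points, 3.75 to 7.73). Against kept sites the value was above 0 in each band, and its interval held 0 at day 5 scores of 4 to 10 (4.22 points, -1.0 to 7.56) and in each day 1 band but that of 10 to 20 (6.1 points, 1.64 to 10.3). Against day 1 only sites it was 0.343 points (-2.49 to 4.36) at day 1 scores of 4 to 10 and passed counting error in the bands above. AP-1 (TGACTCA or its complement TGAGTCA), bound by Fos and Jun dimers, was at 175 lost sites (14.6%, against 10.8% of all merged sites and 3.79% of flanking windows). It exceeded the share of day 1 only sites (10.7%, 3.90 points, 1.85 to 6.14) but was not distinguishable from that of kept sites (12.3%, 2.21 points, -0.863 to 5.17). Against day 1 only sites the AP-1 difference passed counting error in each band of the day 1 score below 40. At 40 or more it was -0.274 points (-9.2 to 7.39). TEAD (ACATTCC), read by the effectors of Hippo signalling, was at 81 (6.74%, against 4.68% of all merged sites). The single Sox site (CCATTGT or CCTTTGT) was at 233 (19.4%, against 16.0% of all merged sites), and the KLF site (GGGCGTGG or GGGTGTGG), matching Klf4, at 52 (4.33%, against 3.12%). CEBP (TTGCNNAA) was at 13.6% of lost and 19.7% of kept sites (-6.04 points, -9.43 to -2.74), and this string can overlap an octamer or SoxOct match.

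Within lost sites, AP-1 and RUNX went with different POU classes. AP-1 was at 119 of the 726 lost sites with no POU motif (16.4%) and at 56 of the 476 with one (11.8%), a difference of 4.63 points (0.553 to 8.49). RUNX was at 9.37% of the former and 17.6% of the latter (-8.28 points, -12.4 to -4.35). At kept sites the corresponding differences were 2.38 points (-2.14 to 7.10) for AP-1 and -3.14 points (-6.83 to 0.702) for RUNX. A lost site near Olfr1411 and the MORE site nearest to Plxdc2 had almost the same sequence, with the same MORE+1, Sox and RUNX matches. Sites in repeats, described below, were not left out, and the part of repeated sequence in the RUNX difference was not tested. AP-1 and RUNX were both present at 18 lost sites, at least one of AP-1, RUNX and TEAD at 373 (31.0%, against 21.4% of all merged sites and 24.3% of kept sites), and none of the 13 motifs at 341 (28.4%, against 38.1% and 20.5%).

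**Figure D4:**
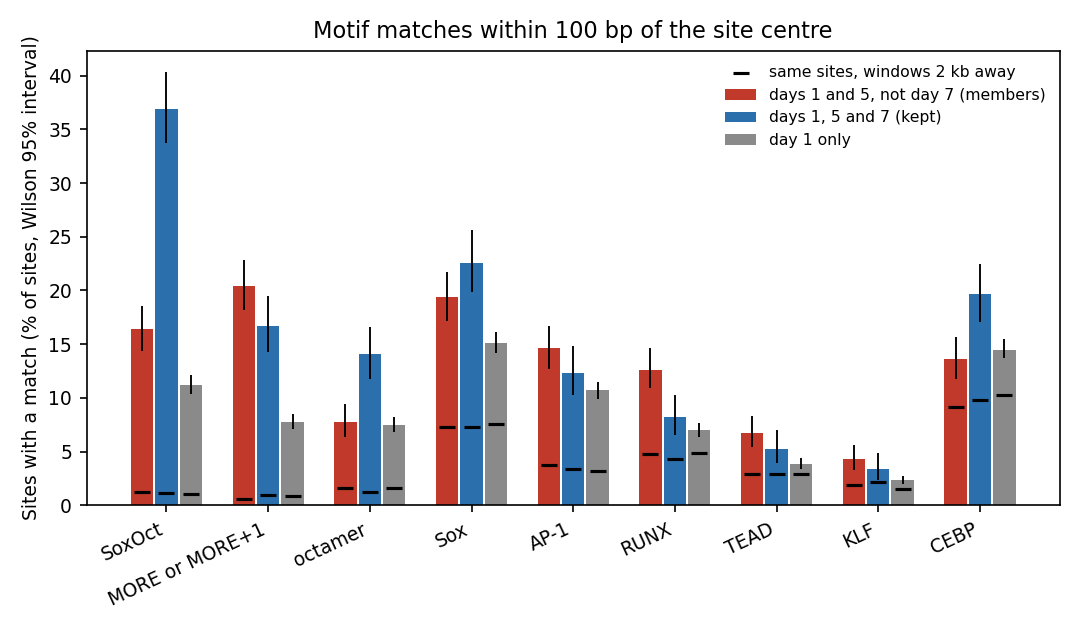
Share of lost (red), kept (blue) and day 1 only (grey) sites with a match to each motif within 100 bp of the centre; error bars are Wilson 95% intervals, and black dashes give the share of windows 2 kb to either side of the same sites. SoxOct stands at 36.9% of kept sites and 16.4% of lost sites, and MORE at 20.4% of lost and 7.77% of day 1 only sites.

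Lost sites with MORE and lost sites with SoxOct differed most in Oct4defSox2 at day 5 and in Sox2 of Oct4-SK cells at day 1. The 233 with MORE and no SoxOct had median Oct4 scores of 19.7 at day 1 and 14.5 at day 5, and the 185 with SoxOct and no MORE had 17.9 and 11.1. Oct4defSox2 at day 5 was at 75 of the MORE sites (32.2%, 26.5 to 38.4) and at 7 of the SoxOct sites (3.78%, 1.84 to 7.60), a difference of 28.4 points (21.6 to 34.9). At day 1 it was at 91.8% and 81.6% (10.2 points, 3.74 to 17.1). Sox2 in Oct4-SK cells at day 1 was at 9.01% of the MORE sites and 29.2% of the SoxOct sites, a difference of -20.2 points (-27.7 to -12.7), and at day 5 at 3.00% and 9.19% (-6.18 points, -11.4 to -1.63). For Sox2 in the other cocktails and for Oct6 M151S the interval of the difference held 0. Oct4 S151M was at 231 of the 233 MORE sites (99.1%) with a median score of 421, and at 95.1% of the SoxOct sites with a median score of 59.6 (4.01 points, 0.823 to 8.17). Sites with no POU motif had Sox2 in Oct4-SK cells at 25.8% at day 1 and 14.0% at day 5, a day 1 share within counting error of that of SoxOct sites (29.2%, difference 3.43 points, -3.48 to 11).

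**Figure D5:**
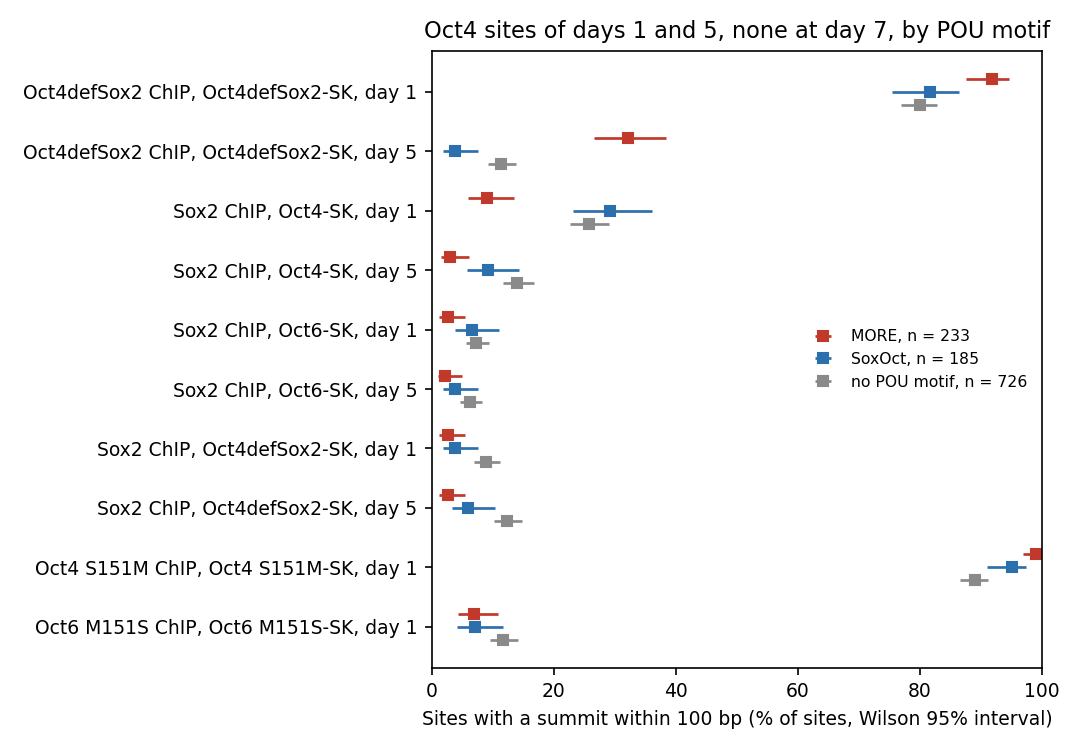
Share of lost sites with MORE (red), with SoxOct (blue) and with no POU motif (grey) that had a summit of each other library within 100 bp; bars are Wilson 95% intervals. MORE sites are highest for Oct4defSox2 at day 5 (32.2% against 3.78% and 11.3%) and lowest for Sox2 in Oct4-SK cells (9.01% at day 1 and 3.00% at day 5).

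Lost and kept sites were also compared with the motif held fixed. Oct4defSox2 at day 5 was at 32.2% of lost and 63.7% of kept MORE sites (-31.5 points, -41.3 to -20.8), whereas at day 1 it was at 91.8% and 90.3% (1.52 points, -4.34 to 8.61). At SoxOct sites Oct4defSox2 was at 3.78% of lost and 8.3% of kept sites at day 5 (-4.52 points, -8.75 to 0.134), and at 81.6% and 89.3% at day 1 (-7.65 points, -14.6 to -1.25). Sox2 in Oct4-SK cells at day 5 was at 9.19% of lost and 27.0% of kept SoxOct sites (-17.8 points, -24.2 to -10.9), and at day 1 at 29.2% and 30.1% (-0.915 points, -9.12 to 7.62). Sites with no POU motif also differed, for Sox2 in Oct4-SK cells at day 5, 14.0% against 27.7% (-13.6 points, -19 to -8.45), and for Oct4 S151M at day 1, 89.1% against 96.9% (-7.81 points, -10.6 to -4.69). These shares were not adjusted for the Oct4 score.

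MORE sites also differed in sequence context. The site centre lay in sequence that the reference marks as repeat at 44.1% (38.0 to 50.3) of the 245 lost sites with MORE, 15.7% (11.3 to 21.5) of the 197 with SoxOct, 12 sites being in both groups, and 19.7% (17.0 to 22.7) of those with no POU motif. The difference between MORE and SoxOct sites was 28.3 points, with an interval that excluded 0. Lost sites with MORE exceeded kept sites with MORE, at 32.8%, by 11.2 points (0.997 to 20.9), and lost sites with SoxOct exceeded kept sites with SoxOct, at 9.6%, by 6.13 points (0.271 to 12.5). Against day 1 only sites with MORE, at 38.6%, the difference was within counting error (5.44 points, -2.15 to 13.1). Over all lost sites the repeat share was 23.8%, against 17.5% of kept sites (6.31 points, 2.71 to 9.80) and 22.8% of day 1 only sites. The part of the shorter reads of the day 7 library in this difference was not tested. The GC content of the windows had a median of 39.8% at lost, 41.8% at kept and 37.3% at day 1 only sites.

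The location of lost sites in introns and between genes was near that of all merged Oct4 sites. By the GENCODE M21 annotation, 582 (48.4%, against 47.8% of all merged sites) lay in introns, 519 (43.2%, against 42.8%) between genes, 70 (5.82%) at promoters, meaning within 1 kb of any transcription start, 17 in UTRs, 6 in coding exons and 8 in non-coding exons. The promoter share was 6.69% of all merged Oct4 sites, 9.41% of kept sites (-3.59 points, -6.09 to -1.25) and 4.38% of day 1 only sites (1.44 points, 0.133 to 2.99). Within bands of the day 5 score the interval of the difference from kept sites held 0 in each, with values from -11.9 points (-20.3 to 1.12) at 40 or more to 3.54 points (-1.65 to 9.39) at 20 to 40. By the day 1 score the difference was below 0 in each band and passed counting error at 20 to 40 (-5.06 points, -9.53 to -1.17) and at 40 or more (-6.35 points, -11.9 to -0.85). The difference from day 1 only sites did not pass counting error with summits merged at 50 bp (0.904 points) or 250 bp (1.08), with equal numbers of Oct4 summits (1.46) or with a promoter distance of 5 kb (1.56). The median distance to the nearest start of a coding gene was 55963 bp, against 51188 bp for all merged, 38426 bp for kept and 67179 bp for day 1 only sites. Within 10000 bp, 30 lost sites (2.5%) had another lost site, 23 (1.91%) a kept site and 122 (10.1%) a day 1 only site. The corresponding shares for all merged sites were not computed here.

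The highest-scoring lost site was in an intron of Pde4d, a phosphodiesterase that degrades cAMP, at chr13:109592926-109593126, 11621 bp from the start. Its Oct4 score was 296 at day 1 and 189 at day 5, and the nearest day 7 summit was 246905 bp away. It was occupied in 6 of the other 10 libraries, among them Oct4defSox2 at day 1 (score 231) and day 5 (26.7) and Sox2 in Oct4-SK cells at day 1 (40.4) and day 5 (20.3). It carries the octamer printed above and a single Sox site. The second octamer site lay in an intron of Slc22a3, an organic cation transporter, with scores of 57.8 and 17.1, and had Oct4defSox2 at day 1 (81.8) and Oct4 S151M and no Sox2.

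Among MORE sites, the highest was in an intron of Sort1, which encodes the sorting receptor sortilin, at chr3:108304772-108304972. Its Oct4 score was 220 at day 1 and 100 at day 5, and Oct4defSox2 had scores of 664 at day 1 and 75 at day 5 and Oct4 S151M one of 1235. The site of Bcl2l11, the pro-apoptotic gene for Bim, lay 70702 bp upstream in an intron of Acoxl and scored 177 at day 1 and 33.7 at day 5, with Oct4defSox2 at day 1 alone (34.9). The site of 1810010H24Rik, 5822 bp upstream of its start, scored 123 and 79.0, with Oct4defSox2 on both days (358 and 55.9). None of the 3 had a Sox2 summit in any cocktail.

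Among SoxOct sites, the highest lay in a UTR of St8sia4, a polysialyltransferase, and scored 121 at day 1 and 18.3 at day 5. That of Nacc1, a BTB-domain transcriptional regulator, was intronic and scored 110 and 28.9, and that of 4933405O20Rik, in an intron of Nell1, scored 89.7 and 39.4. Oct4defSox2 occupied all 3 at day 1 (scores 221, 88.9 and 148) and none at day 5. Sox2 in Oct4-SK cells was at Nacc1 (21.9) and 4933405O20Rik (29.2) at day 1, and at none of the 3 at day 5.

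Of the sites with no POU motif, the highest was 9623 bp upstream of 5031439G07Rik, at chr15:84997523-84997723, and scored 212 and 35.3. The next was 1439010 bp from the start of Cited2, a co-regulator that binds CBP and p300, and scored 74.7 and 90.4. The third was 88746 bp from Axin2, a Wnt target that restrains Wnt signalling, and scored 94.9 and 68.6, with Oct4defSox2 on both days (50.9 and 17.6). It had no Oct4 S151M summit.

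Some lost sites were shared by nearly all libraries. Those present in 9 of the other 10 libraries included a site in an intron of Rb1, the retinoblastoma tumour suppressor (Oct4 scores 29.2 and 5.18), and one 157512 bp from Jun, a subunit of AP-1 (20.4 and 6.34). Both lacked Oct4defSox2 at day 5. At the Jun site, Sox2 scored 17.8 at day 1 and 69.4 at day 5 in Oct4-SK cells, and 13.8 and 74.6 in Oct4defSox2-SK cells. At the other end, the strongest lost sites found in no other library were 222591 bp from Got2 (44.5 and 4.78), 117570 bp from Vmn1r238 (17.7 and 19.3) and in an intron of Ptprt, a receptor tyrosine phosphatase (24.1 and 12.8).

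Some lost sites stood at opposite ends of the 2 lists. The lost site in an intron of Ppp2r2b, a regulatory subunit of protein phosphatase 2A, was at percentile 0.779 of the day 1 list and 85.0 of the day 5 list (scores 4.08 and 19.9). An intergenic lost site 235629 bp from Il12b, a cytokine subunit, was at 2.74 and 82.4. High in the day 1 list and low in that of day 5 were the site of Ranbp9, at percentiles 98.7 and 1.36 (scores 75.4 and 4.16), and a MORE site 579325 bp from Nr2f2, an orphan nuclear receptor, at 98.5 and 9.19. The Nr2f2 site had Oct4defSox2 scores of 580 at day 1 and 117 at day 5. By ratio of scores, a choice made after the values were seen, the site with the highest day 5 score for its day 1 score was 681 bp from the start of Sox9, a transcription factor of chondrocytes and several progenitors, with 7.36 at day 1 and 143 at day 5 (percentiles 21.8 and 99.6), and the nearest day 7 summit was 18739 bp away. Sox9 had Oct4defSox2 at day 1 (27.6) and no other library.

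The lost sites were nearest to 1058 coding genes, of which 942 had 1 lost site, 96 had 2, 13 had 3, 6 had 4 and 1 had 5. Pik3c3, the class III phosphoinositide kinase, had the 5, at distances from 151174 to 1295780 bp, with day 1 scores from 9.31 to 45.3. Of the genes with 4, Plxdc2, a transmembrane protein, had 2 SoxOct sites and 1 MORE site, with day 1 scores from 16.0 to 82.9. Cited2 had 4 with day 1 scores from 6.11 to 74.7. The gene Trhde, for an enzyme that inactivates thyrotropin-releasing hormone, had 4 with day 1 scores from 9.70 to 63.7. Dlg2, a synaptic scaffold, had 4 intronic sites with no POU motif and scores from 9.88 to 42.5 at day 1. Fam181b had 4, all with no POU motif, with day 1 scores from 4.71 to 39.5. Being nearest does not make a gene a target.

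Gene lists for processes of reprogramming held few of the nearest genes, and shares are set beside those of all merged Oct4 sites. A site listed at a gene has that gene's start as its nearest coding start, in some cases far away. Fibroblast and mesenchymal genes were nearest to 6 lost sites (0.499%, against 0.526%), at Col3a1 and Col5a2 (fibrillar collagens), Cdh2 (N-cadherin) and Zeb1, a repressor of epithelial genes. The stronger of the 2 Col3a1 sites scored 58.6 and 11.9 and the Col5a2 site 57.3 and 11.9 at days 1 and 5. AP-1 genes had 1 (0.0832%, against 0.061%), the Jun site above. Epithelial genes had 0 of the 1202 (against 0.061%).

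Pluripotency genes were nearest to 3 lost sites (0.250%, against 0.427% of all merged sites and 6 of the 818 kept sites, 0.733%). They included Tfcp2l1, a factor of naive pluripotency (40.3 and 15.3), and Tet1, a 5-methylcytosine dioxygenase (15.6 and 14.3). The Tet1 site had no POU motif and had Oct4defSox2 at day 1 (102) and at day 5 (35.1).

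Signalling genes were as rare. TGF-beta and BMP genes had 3 (0.250%, against 0.343%), at the receptors Tgfbr1 (19.7 and 11.1) and Tgfbr2 (9.60 and 7.29) and at Ltbp1, which tethers latent TGF-beta (22.7 and 5.39). Wnt genes had 4 (0.333%, against 0.328%), at Axin2, at the transcription factors Tcf7l2 (55.4 and 47.9, with SoxOct) and Lef1 (10.7 and 23.5) and at the receptor Kremen1 (11.1 and 6.70). Hippo genes had 3 (0.250%, against 0.282%), at the cadherin Fat4 (48.4 and 48.8, with MORE+1) and at the transcription factor Tead4, where 2 sites scored 9.60 and 6.17 at day 1.

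Neural genes had 2 (0.166%, against 0.252%), both between genes. They lay 197794 bp from the adhesion molecule Ncam1 (17.4 and 7.39) and 298949 bp from Sox11 (13.7 and 7.29). Chromatin regulators had 7 (0.582%, against 0.29%), at Suz12 and Jarid2 of Polycomb repressive complex 2, Smarca2 and Smarca4, the ATPases of BAF complexes, Ep300, a histone acetyltransferase, Hdac9, a histone deacetylase, and Kdm6a, a demethylase of H3K27me3. Of these, the Suz12 site scored 63.0 at day 1 and 9.46 at day 5, the Smarca2 site, with SoxOct, 27.0 and 22.6, and the Ep300 site 10.7 and 34.7. With counts of 0 to 7 a list, no difference from the background was read.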

How the data were processed

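ChIP-seq libraries of OG2 MEFs under reprogramming were analysed: 13 ChIP libraries in 13 groups taken from the sample titles, while 3 input libraries were not analysed here. Reads were aligned by the authors to mm10 with Bowtie2 2.2.5, reads of low mapping quality and duplicates were discarded with samtools, and peaks with several summits were called per library with MACS2. The summit scores deposited by the authors are −log10 p-values, not adjusted and not scaled between libraries. Whether an input was used in calling is not given in the sources used here. No score was under 4 except in Oct6 M151S, where the lowest was 2.3. Read depth was not analysed here, and numbers of summits stood in for yield. Fold enrichment tables of 2 libraries were not used here.

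The 3 lists of Oct4 summits (day 1, day 5, day 7) were merged at 100 bp by single linkage, and 39 of 13154 merged sites lay off chromosomes 1 to 19, X and Y, 1 of them of the lost class. Sequence came from GRCm38 (0 summits lay past a chromosome end), and gene models from GENCODE M21 (basic). The centre of a site is the midpoint of its outermost summits. The 13 motifs were searched in windows of 100 bp to each side, with windows 2 kb away as background. The SoxOct, MORE and MORE+1 elements were searched as consensus strings with up to 2, 1 and 1 mismatches. Shares carry Wilson 95% intervals and differences Newcombe 95% intervals, which cover counting error among sites and compare libraries, not conditions. Intervals that excluded 0 were taken as past counting error.

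The sites and gene lists were chosen with earlier results of these data known. Sites named in the text follow a rule: the highest mean Oct4 score of days 1 and 5 within each POU motif class, among sites in the most and in none of the other libraries and per gene list, the largest differences of percentile between the day 1 and day 5 lists, and the genes nearest to the most sites. Some sites that this rule names are not reported here. Sites with the largest ratio of scores were singled out after their values were seen. Alternatives were summit distances of 50 and 250 bp, Oct4 scores of 10 or more, equal numbers of Oct4 summits, 1 summit per peak, no day 7 summit within 1000 bp, 1 fewer or more mismatch, windows of 50 bp and a promoter distance of 5 kb. Score bands, the shortening of long lists and the Oct6 M151S limit were added after seeing the data. Calculations used Python 3.11.15 with numpy 2.4.6, pandas 2.3.3 and pysam 0.24.0, and were tested on simulated data.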

Additional observations from a re-analysis of the deposited data

How the results depend on the processing

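No paired analysis was possible because each group had 1 library, and for the same reason no library could be left out within a group. The number of lost sites was 736 with Oct4 scores of 10 or more and 718 with equal numbers of the strongest Oct4 summits, and between 976 and 1283 under the other settings. Of the 14 differences planned as main results, the SoxOct, promoter, AP-1 and Sox2 day 5 differences from kept sites, all 3 from day 1 only sites and both between MORE and SoxOct sites kept their direction and their side of 0 under every setting run other than the score bands. Within those, the promoter difference from kept sites turned to 3.54 points at day 5 scores of 20 to 40, that of AP-1 to -2.23 and -3.61 points at day 1 scores of 4 to 10 and of 40 or more, and the SoxOct difference from day 1 only sites to -1.26 points at 40 or more, all with intervals holding 0. The SoxOct difference ranged from -20.7 to -6.68 points, the latter with 1 fewer mismatch. The MORE difference from kept sites had an interval holding 0 at 50 bp (2.90 points), at 250 bp (2.89), with 1 fewer mismatch (1.38), in windows of 50 bp (2.48) and at day 1 scores of 10 or more (3.76), the cause not being tested. That of Oct4defSox2 at day 1 did so with equal numbers (-2.57) and at day 1 scores of 10 or more (-2.74), that of Oct4defSox2 at day 5 with Oct4 scores of 10 or more (-4.25), and that of Oct4 S151M with equal numbers (-1.92). With long lists shortened, the Oct4 S151M difference turned to 0.938 points (-3.33 to 5.16), and Sox2 in Oct4-SK cells at day 1 turned to 0.594 points at 250 bp, from a value within counting error.

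Among the other 268 values, 15 changed sign, and each reversed value lay within counting error. Against kept sites these were Sox2 in Oct4defSox2-SK cells at day 1 (-0.679 at 50 bp, -0.788 with equal numbers), Oct6 M151S (0.666 at 50 bp, 0.741 at 250 bp), TEAD (-0.00588) and Sox (0.830), the last pair at Oct4 scores of 10 or more. Against day 1 only sites, Oct4 scores of 10 or more gave -0.989 for Sox2 in Oct4-SK, -0.385 in Oct6-SK and -0.972 in Oct4defSox2-SK cells at day 1 and -0.511 for the octamer. Equal numbers gave -0.148 for Sox2 in Oct6-SK cells and -0.0914 in Oct4defSox2-SK cells at day 1 and -1.28 for the octamer, a distance of 50 bp gave -0.965 for Sox2 in Oct4defSox2-SK cells, and day 1 scores of 10 or more gave -1.31 for the octamer. Intervals that held 0 came to exclude it, against kept sites, for Sox2 in Oct6-SK cells at day 1 (2.65 points at 250 bp, 2.15 with 1 summit per peak), TEAD (2.13 at 250 bp) and Sox (-3.73 in windows of 50 bp). Unknown depth limits the reading of any missing summit.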
